A study of Mus musculus with 8 samples.

Results

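Genomic imprinting is the silencing of a gene on the copy inherited from either the mother or the father, so that the cell expresses it from the other copy. Many imprinted genes control growth, and a classical view sets paternally expressed growth promoters such as Igf2 against maternally expressed restrainers such as Igf2r and H19. Most lie in domains in which a shared control region sets the expression of several genes, often through a long non-coding RNA. The 10 genes described here are Igf2, H19, Igf2r, Grb10, Dlk1, Meg3, Peg3, Plagl1, Mest and Peg10. They were chosen by name, as well-studied imprinted genes of both kinds. Earlier results of these data were known when they and the gene lists used below were chosen. Every non-control probe that the scanner files assign to the 10 genes was taken. That gave 25 probes of 10 genes, out of 55681 probes with 36406 gene names.

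The 8 mouse samples were taken on day 6 of a neural induction protocol, which takes embryonic stem cells to cells labelled as progenitors resembling radial glia. In 4 samples (KD 1 to KD 4) a short hairpin RNA was directed against Zrf1, which current annotation names Dnajc2, a ribosome-associated chaperone that also acts in chromatin. The other 4 samples (control 1 to control 4) carried a control hairpin. Neither the stem cell line and its strain nor the number of hairpins or clones is given in the labels. Each sample was hybridised to its own Agilent 1-colour array, and a probe's level is its log2 signal minus the 75th percentile of that array, so that 0 is that percentile. Levels of different probes are not compared. A change is the mean KD level minus the mean control level, with n = 4 arrays in each group. The labels do not say that the 4 arrays of a group came from separate cultures, so p-values measure the spread between these arrays, which may be technical. The probes do not separate the parental copies, and each level sums both.

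Between 53.4% and 60.3% of the 59305 spots of an array were well above background, and no probe was saturated. Dnajc2 itself was 18.3-fold lower in KD cells, at -2.53 to -2.08 on the KD arrays against 1.75 to 2.02 on the control arrays (limma adjusted p = 1.39e-07). Of 11 tested neural progenitor markers 9 were lower and none was higher in KD cells, and their summed level was 5.05 to 5.12 on KD arrays against 6.91 to 7.03 on control arrays. All 16 tested endoderm markers were higher, with a summed level of 8.43 to 8.58 on KD arrays against 6.99 to 7.09 on control arrays. Fibroblast or feeder markers summed to 6.99 to 7.28 on KD arrays and 6.02 to 6.12 on control arrays. Of 9 tested, 5 were higher and 1 lower (66.7% called), with a median log2 change of only 0.27. Mesoderm and cardiac markers summed to 3.51 to 3.75 on KD arrays and 2.85 to 3.22 on control arrays (6 of 7 tested higher). Trophoblast markers (1 of 7 higher, 2 lower) and pluripotency markers (4 of 10 higher, 3 lower) moved both ways. Of all genes, each by its brightest probe, 57.6% were called, 29.1% higher and 28.5% lower. A summed level mostly follows the brightest genes of its list. The Notch effector Hes5, a marker of neural progenitors, was 16.2-fold lower (limma adjusted p = 5.06e-08), and the visceral endoderm receptor Cubn was 41.4-fold higher (limma adjusted p = 7.71e-08). Of the listed markers, 1 of 12 neural progenitor genes was not well above background on any KD array, and 4 of 18 endoderm genes, Afp among them, on any control array. Of 13 mesoderm and cardiac genes, 6 were not well above background on any KD array and 4 on any control array. Hand2 and T, which were not tested, were above background on 3 and 1 control arrays and on no KD array. The summed levels of neural progenitor, endoderm, fibroblast and mesoderm markers differed between the same groups as the member changes below. Their part in those changes was not tested. In such bulk samples fewer cells of a type and less RNA per cell cannot be told apart.

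The results turn on a few probes, and the sequences of some of them are shown. The 4 Plagl1 probes are shown because they did not all give the same change. Nearest the start of the probed stretch, on the plus strand of mouse build mm9, lie A_55_P1961965 (chr10:12848421-12848480) and A_55_P2153251 (chr10:12848851-12848910). The second of these can be read as 20 codons without a stop before its last codon, which is a stop codon, here in capitals.
A_55_P1961965: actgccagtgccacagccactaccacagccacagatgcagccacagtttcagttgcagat
A_55_P2153251: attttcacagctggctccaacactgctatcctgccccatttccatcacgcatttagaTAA
Further along lie A_55_P1961968 (chr10:12850832-12850891) and A_52_P532456 (chr10:12851280-12851339), whose starts are 448 bases apart. They share a run of 26 identical bases, and 46 of the 48 bases that align between them without a gap are the same. The first 30 aligned bases of each are shown, with the identical ones in capitals.
A_55_P1961968: ATCTCCTAACCTTTGATGACTCTGTAcTTt
A_52_P532456: ATCTCCTAACCTTTGATGACTCTGTAtTTc
Only these 2 probes on the array hold the shared run, on either strand, and both carry the name Plagl1. Because each may bind the RNA of the other, they are not independent measurements. No other pair of the 25 probes shares a run longer than 11 bases.

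Meg3 and H19 are long non-coding RNAs, and whole probes of each are shown because they span very different lengths of genome. Those of Meg3 lie on the plus strand of chromosome 12, at chr12:110782745-110782804 (A_55_P2033407), chr12:110799558-110799617 (A_52_P196568) and chr12:110809678-110809737 (A_51_P455997), so the last starts 26.9 kb after the first. The sequences of the last 2 are shown.
A_52_P196568: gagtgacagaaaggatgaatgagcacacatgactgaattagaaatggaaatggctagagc
A_51_P455997: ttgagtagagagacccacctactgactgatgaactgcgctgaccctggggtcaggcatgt
The 2 H19 probes shown lie on the minus strand of chromosome 7, at chr7:149761492-149761551 (A_55_P1961127) and chr7:149761693-149761752 (A_30_P01021588). The first was the only H19 probe that passed the test.
A_55_P1961127: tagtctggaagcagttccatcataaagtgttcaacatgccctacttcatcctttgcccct
A_30_P01021588: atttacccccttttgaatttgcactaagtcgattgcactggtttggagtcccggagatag
Whether each probe lies in an exon, an intron or a UTR was not analysed here.

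All 25 probes passed the filter on dim probes (detected on every array of either the KD or the control group, and in fact on all 8) and were tested. After Zrf1 knockdown 9 probes were lower and 5 were higher at a limma adjusted p under 0.05, which is 14 of 25 (56%). Across all 29091 tested probes 57.0% were called, 28.1% lower and 29.0% higher, so the members' share is that of the array as a whole and is no result about them. The groups did not overlap for the same number, 14 of 25 member probes, against 54.1% of all tested probes. Called changes of at least 2-fold were seen at 5 member probes, against 18.2% of all tested probes. The median absolute log2 change was 0.34 over the member probes and 0.43 over all tested probes. What follows is therefore which genes moved, in which direction and how far.

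**Figure D1:**
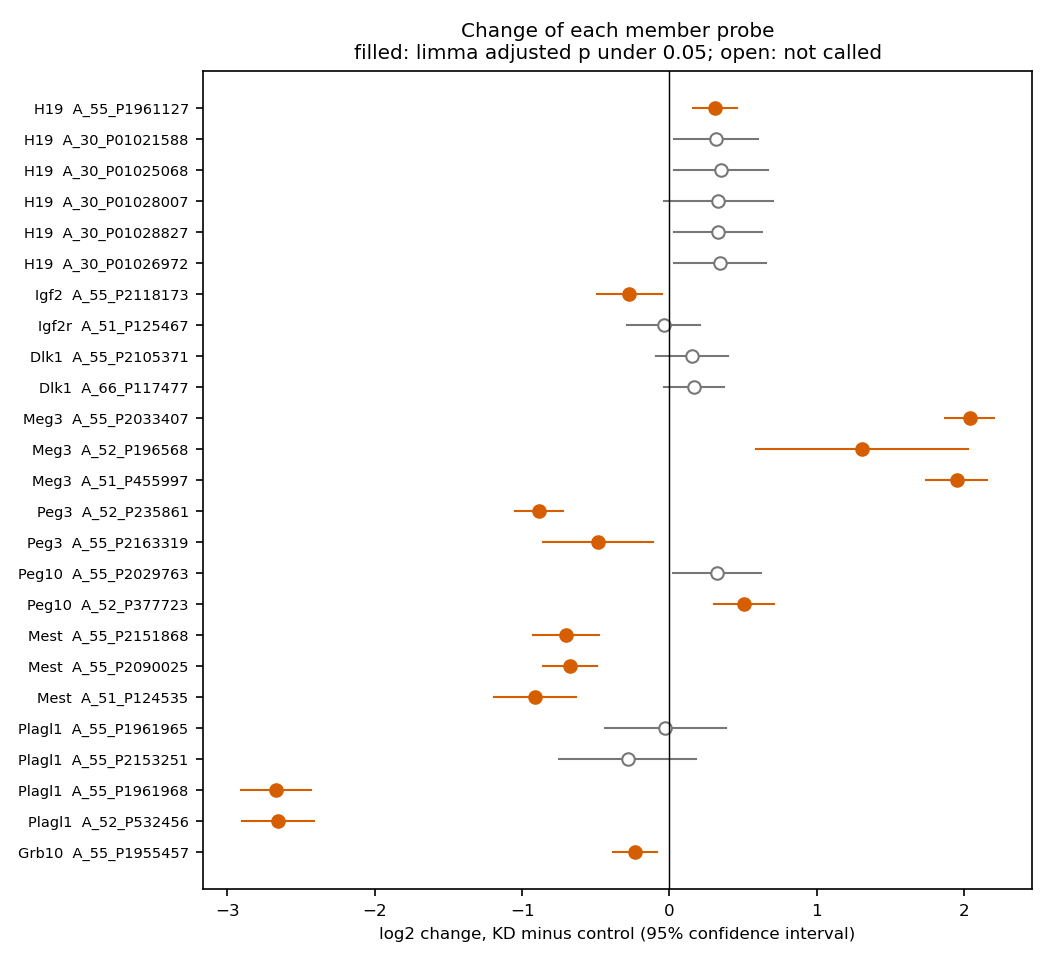
Log2 change, KD minus control, of each of the 25 member probes with its 95% confidence interval (n = 4 arrays per group). Filled dots passed the limma test and open dots did not. The Meg3 probes lie farthest to the right, between 1.31 and 2.04, and a pair of Plagl1 probes farthest to the left, at -2.67 and -2.66.

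By the parental copy from which these genes are known to be expressed, 6 are paternal (Igf2, Dlk1, Peg3, Plagl1, Mest and Peg10) and 4 are maternal (H19, Igf2r, Meg3 and Grb10). Of the paternal genes 4 had a called probe that was lower (Igf2, Peg3, Plagl1 and Mest), 1 had a called probe that was higher (Peg10) and 1 had none (Dlk1). Of the maternal genes 2 had a called probe that was higher (H19 and Meg3), 1 had one that was lower (Grb10) and 1 had none (Igf2r). Grb10 is expressed from the maternal copy in most tissues but from the paternal copy in neurons. Taken by the brightest probe of each gene, the same numbers of members were called, 5 lower and 3 higher of 10, where 57.6% of all 21806 genes were called, 28.5% lower and 29.1% higher. With so few genes of each kind, and genes with several probes counted by any called probe, these counts are a description. Neither group of genes was tested as a group.

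**Figure D2:**
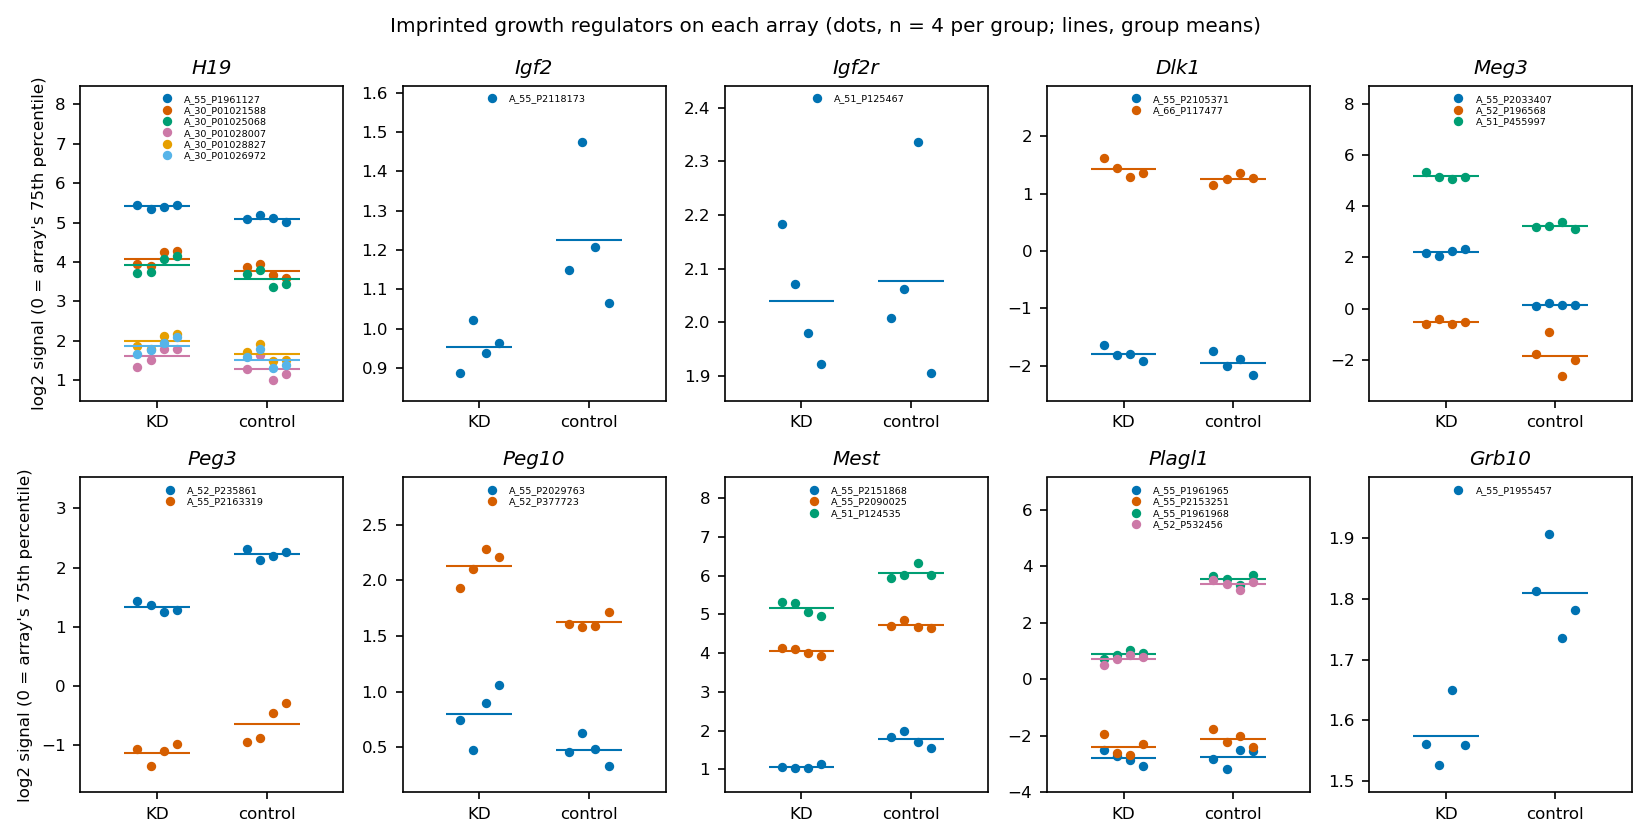
Log2 signal of every member probe on each array (dots, KD left of control in each panel, n = 4 per group), with horizontal lines at the group means and a colour per probe. The vertical scale differs between panels. KD and control dots are far apart for the 2 brighter Meg3 probes, Mest, the brighter Peg3 probe and the brighter pair of Plagl1 probes, and overlap for Igf2r and Dlk1.

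Igf2 encodes insulin-like growth factor 2, a fetal growth factor that signals through the IGF1 receptor. Its single probe (A_55_P2118173, chr7:149839661-149839720) read 0.89, 1.02, 0.94 and 0.96 on the KD arrays, against 1.15, 1.47, 1.21 and 1.07 on the control arrays. Every KD array lay below every control array, but the gap between the nearest arrays was small, and control 2 stood highest. The level was 1.21-fold lower in KD cells (change -0.27, SE 0.10, limma adjusted p = 0.0393). This call held under only 3 of 21 alternative settings. Leaving out 1 array at a time ended it for every array but control 4, with limma adjusted p-values of 0.0515 to 0.0892. Within the 3 slides the change was -0.59, -0.16 and -0.18. Slide 1 holds only KD 1 and control 2, and slide 3 only KD 4 and control 1. For every probe, the values within these slides therefore compare 1 array with 1.

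H19 is a non-coding RNA that is transcribed from the maternal copy next to Igf2, with which it shares enhancers, and it is the precursor of a microRNA. Its 6 probes gave almost the same change, between 0.31 and 0.35, and 1 of them passed the test. At that probe, A_55_P1961127, the levels were 5.44, 5.34, 5.40 and 5.45 on the KD arrays, against 5.08, 5.19, 5.12 and 5.02 on the control arrays. The groups did not overlap, and the level was 1.24-fold higher in KD cells (change 0.31, SE 0.07, limma adjusted p = 0.00391). With each array's median in place of its 75th percentile the change was 0.14 and the limma adjusted p 0.408.

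The other 5 H19 probes had limma adjusted p-values of 0.0576 to 0.113, and their groups overlapped. A_30_P01021588, for example, read 3.94, 3.89, 4.25 and 4.27 on the KD arrays, against 3.87, 3.95, 3.67 and 3.60 on the control arrays. At all 5, KD 3 and KD 4 lay above KD 1 and KD 2, by 0.31 to 0.36 on average. The names of the knockdown files group KD 1 with KD 2 and KD 3 with KD 4. The labels do not say whether these pairs are technical repeats. On the control side, controls 1 and 2 lay above controls 3 and 4 at these 5 probes. Within slide 1, which holds KD 1 and control 2, the 5 changes were -0.31 to -0.01, while on the other slides they were 0.40 to 0.57. With quantile normalization 5 of the 6 H19 probes were called, and likewise with the authors' values.

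**Figure D3:**
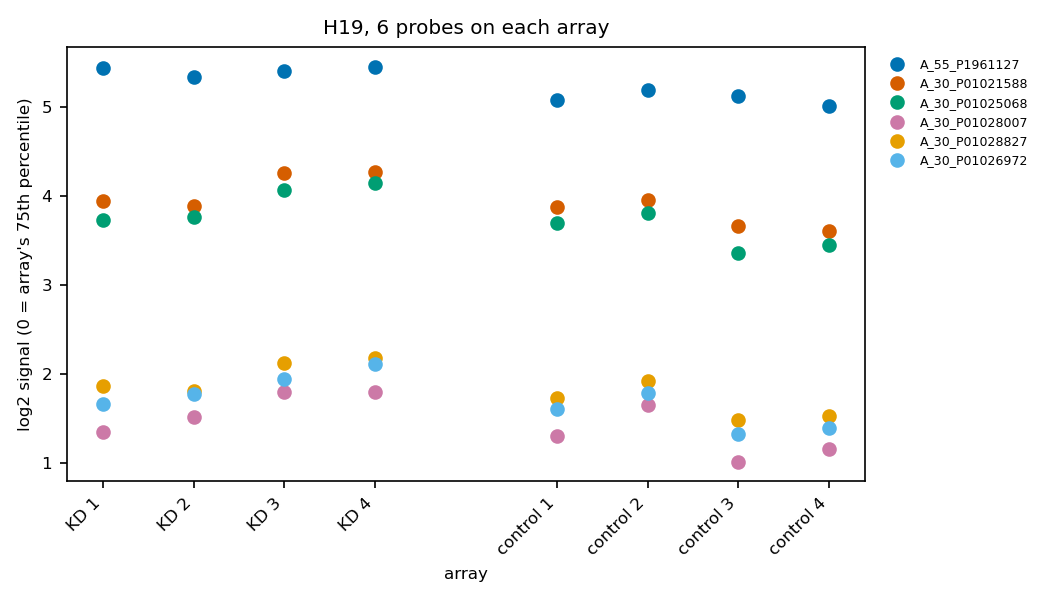
Log2 signal of the 6 H19 probes on each of the 4 KD arrays (left) and 4 control arrays (right), with a colour per probe. The brightest probe, A_55_P1961127, is above 5.3 on every KD array and below 5.2 on every control array. At the other 5 probes KD 3 and KD 4 are the highest arrays, and KD 1 and KD 2 lie among the controls.

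Within each array, Igf2 minus H19 (the brightest probe of each) was -4.56 to -4.32 on the KD arrays and -3.95 to -3.72 on the control arrays. The difference between groups was -0.58 (SE 0.07, exact permutation p = 0.0286, adjusted over 3 planned pairs 0.0429), and 0.0286 is the smallest p that 4 arrays against 4 allow. Scaling an array by a constant cannot change this value. It says that the genes changed by unequal amounts, not which of them moved. The antisense transcript Igf2os, which the files call Igf2as and which was picked after its values were seen, was 1.66-fold lower (0.52 ± 0.10 on KD arrays and 1.25 ± 0.15 on control arrays, SD, n = 4 each, limma adjusted p = 0.000269).

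Igf2r, the receptor that takes up IGF2 and delivers it to lysosomes for breakdown, showed no detectable change. Its probe (A_51_P125467), for which the files give only 11 bases of genome (chr17:12875253-12875263), read 2.18, 2.07, 1.98 and 1.92 on the KD arrays, against 2.01, 2.06, 2.34 and 1.90 on the control arrays. The groups overlapped fully. The change was -0.04 with a 95% confidence interval of -0.29 to 0.21 (limma adjusted p = 0.793). In contrast Airn, the paternal antisense RNA that silences Igf2r on the paternal copy in many tissues, was 2.32-fold higher at its brightest probe, at 1.45, 1.20, 1.27 and 1.32 on the KD arrays against 0.04, 0.04, 0.17 and 0.16 on the control arrays (limma adjusted p = 4.08e-06). A second Airn probe was 1.22-fold higher (limma adjusted p = 0.0142), and the third, above background on 2 of 4 control arrays, was not called (change 0.94, limma adjusted p = 0.0843). Igf2 minus Igf2r differed between groups by -0.23 (exact permutation p = 0.114, adjusted 0.114), and without control 3 by -0.33 (adjusted p = 0.0286).

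Grb10 encodes an adaptor that binds the insulin and IGF1 receptors and dampens their signalling. Its probe (A_55_P1955457, chr11:11833165-11833224) read 1.56, 1.53, 1.65 and 1.56 on the KD arrays, against 1.81, 1.91, 1.74 and 1.78 on the control arrays. The groups did not overlap, and KD 3 came nearest to the controls. The level was 1.18-fold lower in KD cells (change -0.23, SE 0.07, limma adjusted p = 0.0147). This small change was called under 12 of 21 alternative settings and was -0.35, -0.17 and -0.25 within the slides.

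In the Dlk1 domain on chromosome 12, the maternal RNA Meg3 was higher in KD cells and the paternal gene Dlk1 did not pass the test. Dlk1 encodes a transmembrane inhibitor related to Notch ligands that restrains differentiation, and Meg3 is a non-coding RNA at the head of a long maternal transcription unit that holds many microRNAs. The Meg3 probe A_51_P455997 read 5.35, 5.14, 5.07 and 5.14 on the KD arrays, against 3.19, 3.24, 3.37 and 3.10 on the control arrays. At A_55_P2033407 the levels were 2.16, 2.06, 2.24 and 2.31 on the KD arrays, against 0.12, 0.21, 0.15 and 0.14 on the control arrays. Both probes separated the groups by many times the spread within them. Their changes were 1.95 (SE 0.09), or 3.86-fold, and 2.04 (SE 0.07), or 4.11-fold, with limma adjusted p-values of 9.04e-07 and 3.01e-07.

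Between them, A_52_P196568 read -0.59, -0.42, -0.59 and -0.52 on the KD arrays, against -1.77, -0.93, -2.64 and -2.00 on the control arrays. It was also higher in KD cells, 2.47-fold (change 1.31, SE 0.31, limma adjusted p = 0.00719), but its control arrays varied widely. The call was lost when the file-name pairs of KD arrays were averaged (limma adjusted p = 0.0507) and without both KD 1 and KD 2 (0.0574). Without control 2 its change was 1.61, and within slide 1, which holds control 2, it was 0.34, against 1.82 and 1.25 within the other slides. The probes at the ends of Meg3 changed by 1.87 to 2.19 within every slide.

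**Figure D4:**
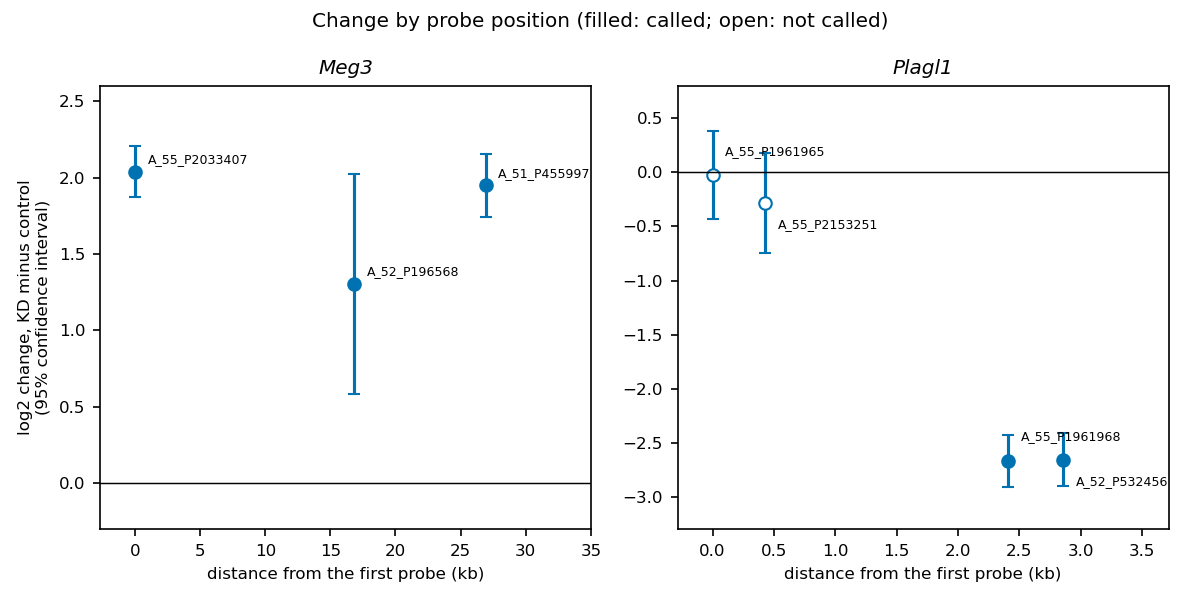
Log2 change, KD minus control, with 95% confidence intervals, against the distance in kb from the first probe of Meg3 (left, 3 probes) and Plagl1 (right, 4 probes). Filled dots were called. All Meg3 probes are above 0, while the Plagl1 changes are near 0 at 0 and 0.43 kb and near -2.7 at 2.41 and 2.86 kb. The Plagl1 probes at 0 and 0.43 kb are dim.

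Dlk1 had 2 probes. The brighter, A_66_P117477, read 1.62, 1.44, 1.29 and 1.35 on the KD arrays, against 1.16, 1.25, 1.36 and 1.28 on the control arrays. The groups overlapped, and KD 1 stood highest. Its change was 0.17, with a 95% confidence interval of -0.04 to 0.37 (limma adjusted p = 0.147), and that of A_55_P2105371 was 0.15, with an interval of -0.09 to 0.40 (limma adjusted p = 0.255). The brighter probe was called higher with the 2 quantile normalizations and with the authors' values (changes 0.25 to 0.27), while with median scaling its change was 0.00. Within each array Dlk1 minus Meg3 was -3.79 to -3.69 on the KD arrays and -2.04 to -1.82 on the control arrays, a difference of -1.78 (SE 0.05, exact permutation p = 0.0286, adjusted 0.0429).

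Other transcripts of the same domain were also measured. Mirg, a non-coding RNA further along the maternal unit, was 2.31-fold higher, at 2.89 ± 0.06 on KD arrays and 1.68 ± 0.08 on control arrays (SD, n = 4 each, limma adjusted p = 2.46e-06). Dio3, the deiodinase that inactivates thyroid hormone, was called 1.50-fold higher, with 3 of 4 control arrays above background (limma adjusted p = 0.0422). Begain was not called (change -0.17, limma adjusted p = 0.222). Rtl1, detected on 3 KD and 3 control arrays, did not pass the filter and was not tested.

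Peg3 encodes a large zinc finger protein expressed from the paternal copy and tied to maternal behaviour and fetal growth. Its brighter probe (A_52_P235861, chr7:6658774-6658833) read 1.44, 1.36, 1.26 and 1.29 on the KD arrays, against 2.31, 2.12, 2.20 and 2.26 on the control arrays. The groups were far apart, and the level was 1.85-fold lower in KD cells (change -0.89, SE 0.07, limma adjusted p = 1.68e-05). The dimmer probe (A_55_P2163319) read -1.06, -1.35, -1.10 and -0.98 on the KD arrays, against -0.94, -0.87, -0.46 and -0.29 on the control arrays. It was 1.40-fold lower (limma adjusted p = 0.0314), with KD 4 almost touching control 1. That second call held under 12 of 21 alternatives, and its change was -0.20, -0.85 and -0.04 within the slides.

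Plagl1, also named Zac1, encodes a zinc finger transcription factor that is known to regulate other imprinted genes and to restrain proliferation. At A_55_P1961968 the levels were 0.71, 0.86, 1.04 and 0.92 on the KD arrays, against 3.66, 3.54, 3.34 and 3.67 on the control arrays. A_52_P532456, which shares sequence with it, read 0.50, 0.70, 0.85 and 0.77 on the KD arrays, against 3.49, 3.37, 3.15 and 3.43 on the control arrays. These were the largest changes of any member probe. The levels were 6.36-fold lower (change -2.67, SE 0.10, limma adjusted p = 4.38e-07) and 6.31-fold lower (change -2.66, SE 0.11, limma adjusted p = 4.87e-07), and both calls held in every setting tried.

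The other 2 Plagl1 probes, A_55_P1961965 and A_55_P2153251, gave other values. A_55_P1961965 read -2.53, -2.72, -2.85 and -3.07 on the KD arrays, against -2.83, -3.19, -2.52 and -2.53 on the control arrays. At A_55_P2153251 the levels were -1.93, -2.63, -2.71 and -2.30 on the KD arrays, against -1.76, -2.22, -2.03 and -2.42 on the control arrays. For both, the groups overlapped. Every array was above background, but both probes were dim, with control means of -2.77 and -2.11. Zim1 and Dio3 probes with control means of -3.47 and -3.82 were above background on only 3 of 4 control arrays. Whether the dim Plagl1 probes could show a fall as large as that of the brighter pair was not tested. Their changes were -0.03, with a 95% confidence interval of -0.44 to 0.38 (limma adjusted p = 0.911), and -0.28, with an interval of -0.75 to 0.18 (limma adjusted p = 0.270). A_55_P2153251 was called lower with normexp and quantile normalization and with the authors' values (change -0.28, limma adjusted p = 0.0483 in both). Within slide 1 the changes of A_55_P1961965 and A_55_P2153251 were 0.665 and 0.287.

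The difference between the Plagl1 probes within arrays is given as a description, since the pair was picked after the probes were seen to differ. A_55_P1961968 minus A_55_P1961965 was 3.23 to 3.99 on the KD arrays and 5.86 to 6.73 on the control arrays, a difference of -2.64 (SE 0.25), and within slide 1 it was -3.50. No gene-level fold is given for Plagl1. The position of each change along the gene is in the plot of change by distance from the first probe.

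Mest, a paternally expressed gene of the alpha/beta hydrolase family whose loss in mice reduces growth, was lower in KD cells at each of its 3 probes. The brightest (A_51_P124535, chr6:30698279-30698338) read 5.33, 5.30, 5.07 and 4.95 on the KD arrays, against 5.93, 6.02, 6.33 and 6.03 on the control arrays. A_55_P2090025 read 4.13, 4.12, 4.01 and 3.92 on the KD arrays, against 4.71, 4.85, 4.67 and 4.64 on the control arrays. At A_55_P2151868 the levels were 1.07, 1.04, 1.04 and 1.13 on the KD arrays, against 1.84, 1.98, 1.71 and 1.54 on the control arrays. None of the 3 probes overlapped between groups. The folds were 1.88, 1.60 and 1.63 in that order, with limma adjusted p-values of 0.000278, 0.000134 and 0.000385, and all 3 calls held in every setting tried.

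Peg10 derives from a retrotransposon and is needed for the placenta. It was higher in KD cells at 1 of its 2 probes. A_52_P377723 (chr6:4709867-4709926) read 1.93, 2.10, 2.28 and 2.21 on the KD arrays, against 1.61, 1.59, 1.59 and 1.72 on the control arrays. The groups did not overlap, and the level was 1.42-fold higher (change 0.50, SE 0.09, limma adjusted p = 0.00141). The other probe, A_55_P2029763, read 0.75, 0.48, 0.90 and 1.06 on the KD arrays, against 0.46, 0.63, 0.48 and 0.33 on the control arrays. KD 2 lay among the controls there, and the change of 0.32 was not called (limma adjusted p = 0.0646). It was called with quantile normalization after normexp (limma adjusted p = 0.0268) and without normexp (0.0467). With median scaling the brighter probe's change was 0.34 and its limma adjusted p 0.0785.

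Beyond the members, 23 genes that neighbour them in the same imprinted domains were tested, each by its brightest probe. Of these 10 were higher and 7 lower, with a median log2 change of 0.23, so that 73.9% were called, against 57.6% of all genes. Among all genes tested in that way 29.1% were higher and 28.5% lower, with a median change of 0.04. Of the neighbours counted as higher, Kcnq1, Zim1 and Dio3 passed the filter on dim probes only through the KD arrays. Some neighbours changed in the direction of the member beside them and some in the other direction. Next to Peg3, which was lower, the zinc finger gene Zim1 was 3.98-fold higher (-1.47 ± 0.11 on KD arrays and -3.47 ± 0.38 on control arrays, SD, n = 4 each, limma adjusted p = 2.97e-05), above background on 3 of 4 control arrays, and Usp29, which is read divergently from Peg3, was 1.33-fold lower (limma adjusted p = 0.00462). Zim3 was not called (change -0.05, limma adjusted p = 0.893).

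Around Peg10, which was higher at 1 probe, Casd1 was 3.11-fold lower, Ppp1r9a 1.83-fold lower and Asb4 1.38-fold lower, while the calcitonin receptor gene Calcr was 2.12-fold higher (limma adjusted p-values 3.58e-06 for Casd1 to 0.00421 for Calcr). Sgce, which shares a bidirectional promoter region with Peg10, was not called (change -0.15, limma adjusted p = 0.310). Copg2, which overlaps the end of Mest, was not called either (change 0.16, limma adjusted p = 0.237, and -0.01 with median scaling). Phactr2 beside Plagl1 was 1.66-fold higher (limma adjusted p = 4.49e-05). Beside Grb10, which was lower, Ddc fell 1.97-fold (limma adjusted p = 6.06e-05) and Cobl 1.40-fold (limma adjusted p = 0.000433). For each of Ppp1r9a, Ddc and Cobl only 1 of 2 tested probes was called.

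The next genes lie in the H19 and Igf2 domain or the neighbouring Cdkn1c cluster. The paternal non-coding RNA Kcnq1ot1 was called 1.23-fold higher, but its groups overlapped (limma adjusted p = 0.0274). The cell cycle inhibitor Cdkn1c was not called (change 0.23, limma adjusted p = 0.114). Phlda2, a restrainer of placental growth, was 1.65-fold lower (limma adjusted p = 0.00343). Ins2, an insulin gene, was 1.24-fold higher and the transporter gene Slc22a18 1.25-fold higher (limma adjusted p = 0.00270 and 0.0108). The potassium channel gene Kcnq1 was at least 2.10-fold higher, since it was not well above background on any control array (means -3.03 on KD arrays and -5.71 on control arrays, limma adjusted p = 3.45e-05). That p-value rests partly on control signal not above background. Th was not called (change 0.23, limma adjusted p = 0.445).

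**Figure D5:**
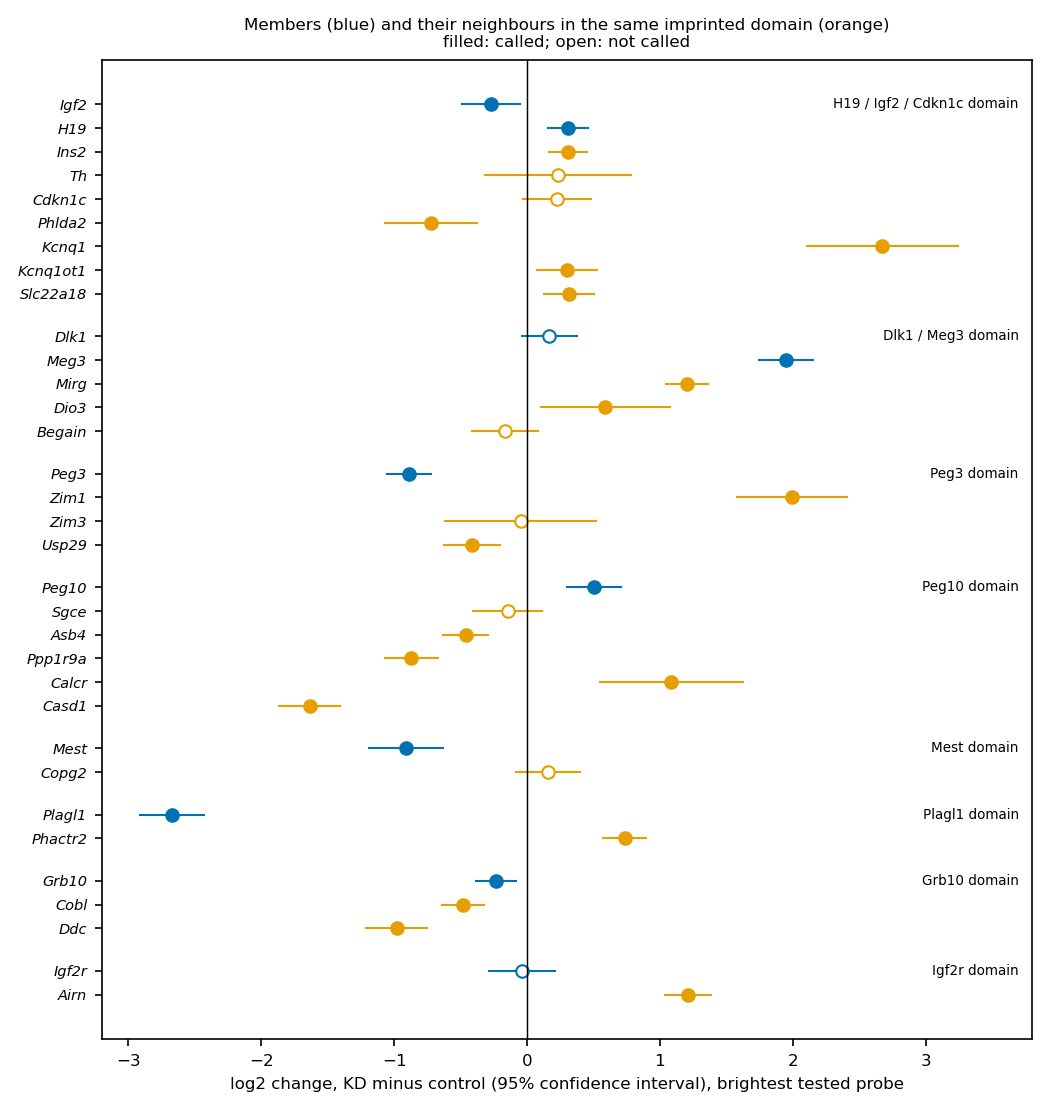
Log2 change, KD minus control, with 95% confidence intervals, of the members (blue) and of their tested neighbours (orange) by imprinted domain, each gene by its brightest tested probe (n = 4 arrays per group). Filled dots were called. Meg3 and Mirg lie to the right with Dlk1 near 0, Airn lies to the right with Igf2r near 0, and Peg3 lies to the left with Zim1 to the right. Kcnq1 was dim on all control arrays, so its dot rests partly on signal not above background.

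Among 59 other imprinted genes, which include the neighbours, 20 were higher and 21 lower, with a median change of 0.11, so that 69.5% were called, against 57.6% of all genes. The largest fall was that of Peg12 (Frat3), a paternal gene of the Prader-Willi domain that encodes a GSK3-binding protein of the Wnt pathway. It was 17.9-fold lower, at -1.98, -1.79, -1.88 and -2.11 on the KD arrays against 2.22, 2.12, 2.35 and 2.22 on the control arrays (limma adjusted p = 5.06e-08). The neuronal growth suppressor Ndn and the ubiquitin ligase regulator Magel2 of the same domain fell 2.55-fold and 1.89-fold (limma adjusted p = 2.45e-06 and 4.29e-05). Ascl2, a helix-loop-helix factor of trophoblast and intestinal stem cells, was 2.82-fold higher (limma adjusted p = 2.88e-06).

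The machinery that Igf2, Igf2r and Grb10 act on was measured with a list of 30 tested genes of IGF and insulin signalling, of which 13 were higher and 10 lower (median change 0.14). That is 76.7% called, against 57.6% of all genes (29.1% higher, 28.5% lower). The docking protein Irs1 was 2.15-fold lower and the kinase Akt1 2.24-fold lower, while Irs2, another docking protein, was 1.61-fold higher. Of the IGF-binding proteins, Igfbp6, which prefers IGF2, was 4.32-fold higher at 0.35 ± 0.17 on KD arrays and -1.76 ± 0.21 on control arrays (SD, n = 4 each). Igfbp2 was 1.51-fold higher and Igfbp5 1.77-fold lower. Igf2bp2, which binds Igf2 mRNA, was 1.49-fold lower. The limma adjusted p-values of these 7 genes ran from 2.91e-06 for Irs1 to 0.000285 for Irs2.

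Of 23 tested genes that establish or maintain imprints, 5 were higher and 13 lower (median change -0.47), so that 78.3% were called, against 57.6% of all genes (29.1% higher, 28.5% lower, median change 0.04). Trim28, the co-repressor that protects imprints with zinc finger proteins, was 2.64-fold lower, at 4.24 ± 0.06 on KD arrays and 5.64 ± 0.10 on control arrays. The heterochromatin protein gene Cbx5 was 2.07-fold lower. Dnmt3l, the cofactor of DNA methylation in germ cells, was 3.20-fold higher, at 4.48 ± 0.11 on KD arrays and 2.80 ± 0.07 on control arrays. Ctcfl, the germ cell paralogue of the insulator protein CTCF, was 6.29-fold higher (SD, n = 4 each; limma adjusted p-values 9.12e-07 for Dnmt3l to 3.50e-06 for Ctcfl). DNA methylation was not measured in these samples.

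For each member the gene with the most similar profile over the 8 arrays was found by Pearson's r of log2 levels, other members left out. For Meg3 it was Lmna (r = 0.9998), for Plagl1 Hoxa3 (r = 0.9992), for H19 Stx1a (r = 0.9985), for Mest Setdb1 (r = 0.9979) and for Peg3 Slc16a13 (r = 0.9966). Such values mostly restate the split into groups, since 2937 genes had an r over 0.95 with Meg3 and 2689 with Plagl1. For Grb10 it was Slc22a15 (r = 0.989), for Dlk1 Osgep (r = 0.982), for Igf2r Lpar6 (r = 0.963) and for Igf2 Gm3718 (r = 0.955), and 2 genes passed 0.95 for Igf2. For Peg10 it was the unnamed probe A_55_P2055217 (r = 0.986). All arrays share their platform and scaling, so these are descriptions of 8 points each.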

How the data were processed

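RNA of 8 samples (4 Zrf1 KD, 4 control; 100 ng each, amplified from oligo-dT per the labels) was read on Agilent arrays of design 028005. The deposited intensity of each spot was extracted with Feature Extraction 10.7.3.1, with background and spatial trend removed, per the file headers. The authors' deposited log2 values (median 7.10 in every column, correlation 0.99999 with normexp plus quantile values) served as an alternative, since the sources used here do not give their steps. Here, outlier spots were dropped, spots averaged per probe, log2 taken and each array's 75th percentile subtracted. The 29091 probes well above background on all arrays of a group were fitted with limma 3.58.1 in R 4.3.3. The test was two-sided, Benjamini-Hochberg adjusted over all of them, threshold 0.05. The fit was first run on simulated arrays with independent noise and few changed probes. That setting covers neither the scaling of arrays nor data in which 57.0% of probes were called. Where a probe was dim on every array of either group, its fold is a bound ("at least"). Pairs of genes were compared within arrays by exact permutation tests over arrays. The 8 arrays limit the precision. Beside the members, the text names every tested domain neighbour, each member's most similar gene, and the called genes with the smallest p of each list (up to 10 other imprinted, 8 IGF, 4 imprint maintenance and 3 of each marker list, most of the last given only as counts). An item that this rule takes is not reported here. Members and lists were chosen with earlier results of these data known. Alternatives covered background correction, scaling, filter, gene level, slide, file-name pairs, replicate number, the authors' values, single arrays left out and, added after seeing the data, slide 2 alone.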

Additional observations from a re-analysis of the deposited data

Results flagged for a closer look

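Of 166 groups of 4 arrays checked over 83 features, 6 held an array far from the other 3, about as many as chance gives at 1 in 20. None was of a member. Phlda2 read 0.63 on KD 4 against 0.97 to 1.00 on the other KD arrays, and without it the change was -0.64 (limma adjusted p = 0.00939). Ins2 read -0.86 on KD 4 against -0.78 to -0.76, and without it the change was 0.34 (limma adjusted p = 0.00538). Th read -1.51 on KD 4 against -2.08 to -2.01, and it was not called with or without that array. Copg2 read 2.72 on control 3 against 2.96 to 2.99 on the other controls, and it was not called in either case. Irs2 read 4.70 on control 3 against 4.58 to 4.59, and without it the change was 0.71 (limma adjusted p = 0.000662). Zfp42, a pluripotency marker, read 4.02 on control 3 against 3.89 to 3.90, and without it the change was -0.87 (limma adjusted p = 7.18e-05).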

How the results depend on the processing

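Of the 14 called member probes, 8 were called in all 21 settings with a test (3 of Mest, 2 of Meg3, 2 of Plagl1 and the brighter of Peg3). All 14 had 1 sign on all 3 slides, but this had to be so, since their groups did not overlap. It is no further support. Median scaling shifted the median of all probes by -0.17, so that 38.0% of calls were higher (5586 probes) against 50.8%. Higher member probes numbered 11 with normexp and quantile, 11 with quantile alone, 11 with the authors' values, 9 without both KD 1 and KD 2 and 3 with median scaling, and 5 to 10 with 1 array left out (8 without KD 2, 10 without control 2). At gene level 8 of 10 were called, 3 higher and 5 lower. With 1 array left out, 12 to 18 member probes and 15500 to 16533 probes in all were called (7732 to 8313 higher, 7591 to 8220 lower, 7 to 8 members lower). Igf2 minus H19 was -0.84 within slide 1 and -0.46 within slide 2, and -0.63 to -0.53 with 1 array left out. Dlk1 minus Meg3 was -1.81 to -1.74, Igf2 minus Igf2r -0.33 to -0.15 (-0.71 within slide 1) and the Plagl1 probe pair -2.80 to -2.49 (-3.50 within slide 1). Replicate numbers did not pair samples (correlations of deviations 0.105, -0.118, 0.114 and -0.190). The replicate block called 15007 probes, and averaging the file-name pairs 14235. Neither changed the pair differences, but exact p-values then could not pass, as 4 sign flips allow no less than 0.125 and 2 against 4 no less than 0.0667. Igf2 minus H19 (-0.58) and Dlk1 minus Meg3 (-1.78) had exact adjusted p = 0.188 with the block and 0.100 averaged. The difference of the Plagl1 pair, a description, was -2.64 in both. Signs turned only for uncalled changes. Igf2r was 0.062 with normexp and quantile, 0.056 with quantile alone, 0.064 with the authors' values, 0.050 without both KD 3 and KD 4, and -0.096 to 0.048 with 1 array left out. Plagl1 A_55_P1961965 was 0.14 without both KD 3 and KD 4, and -0.17 to 0.066 with 1 array left out. Sgce was 0.044 without both KD 3 and KD 4, and Zim3 0.041 without both KD 1 and KD 2 and -0.25 to 0.14 with 1 array left out. Under median scaling Copg2 was -0.0082 and Dlk1 A_55_P2105371 -0.014. The cause was not tested.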
